A study of Arabidopsis thaliana with 6 samples.

Results

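The autoinhibited calcium ATPases (ACAs) are calcium pumps of plant membranes, and the 10 ACA genes of Arabidopsis were taken from the deposited expression table by their locus identifiers. All 10 loci were among the 24379 genes of the table. Transcripts were measured by RNA-seq in roots of 7-day-old WT Col-0 seedlings, in 3 samples treated with Al and 3 control samples grown without it. The study's text gives the treatment as 25 µM AlCl3 for 3 h and the tissue as about 0.5 cm of root from the tip, and the labels say that the seedlings grew in hydroponic culture. No mutant or transgene was in any sample, and the labels do not say whether replicates came from separate cultures, so the p-values measure the spread between these samples. In such bulk samples fewer cells of a type and less RNA per cell cannot be told apart.

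ACA pumps use ATP to carry calcium ions out of the cytosol, across the plasma membrane or into internal stores, and so end the calcium signals that stimuli set off. A terminal stretch of the protein blocks the pump until calmodulin loaded with calcium binds to it, which is the autoinhibition of the name. ACA8, ACA9 and ACA10 sit in the plasma membrane, ACA4 and ACA11 in the vacuole membrane, and ACA2 in the endoplasmic reticulum. Cytosolic calcium is known to change in roots soon after Al is applied.

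In the TAIR10.1 annotation, whose gene starts and ends equal those of the table for all 10 members, the family falls into 4 branches by protein sequence and gene structure. ACA1 (AT1G27770), ACA2 (AT4G37640) and ACA7 (AT2G22950) have 7 exons each, and ACA2 and ACA7 are identical at 93.0% of aligned residues. ACA4 (AT2G41560) and ACA11 (AT3G57330) also have 7 exons and share 87.7% of residues. ACA8 (AT5G57110) and ACA10 (AT4G29900), with 35 exons each, share 74.4%, and ACA9 (AT3G21180), with 32 exons, shares 70.8% with ACA8. ACA12 (AT3G63380) and ACA13 (AT3G22910) have a single exon and share 66.9%. Between branches the identity was 45.2% to 63.7%, and the proteins are 1014 to 1086 residues long. The longest transcript of each ACA gene was searched for 50-base stretches shared with annotated transcripts of other genes, each read on its own strand. None was found, so even the closest members differ within each such stretch. Overlaps with genes on the other strand, given below, were not part of this search.

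Expression is given as FPKM, the fragments on a transcript per kilobase of its length and scaled for the mapped fragments of the sample. Genes were tested with limma on log2(FPKM + 1), over genes that reached an FPKM of 1 in 3 or more samples, and a change was called at a Benjamini-Hochberg adjusted p under 0.05 over all 18463 genes that passed. Of the 10 ACA genes 9 were tested, 6 were called higher after Al (ACA1, ACA2, ACA10, ACA11, ACA12 and ACA13) and 3 lower (ACA4, ACA8 and ACA9). Among all genes tested 21.3% were called higher and 38.5% lower. The median log2 fold change was 0.66 over the 9 members and -0.13 over all genes tested. The FPKM ranges of the groups did not overlap for any of the 9, where 66.3% of all genes tested had no overlap. ACA13 passed the filter only through its Al samples, so it could be tested only with a rise and no overlap. Without it, 5 of the 8 other tested members were higher, and no overlap was seen in any of the 8. With the samples scaled to centre the changes (median-ratio scaling) the calls over all genes became 5381 higher and 4984 lower, against 3933 and 7106. Taken one at a time, each of the 10 genes had p = 0.1 by exact permutation of the sample labels (two-sided), which is the lower limit for 2 groups of 3.

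**Figure D1:**
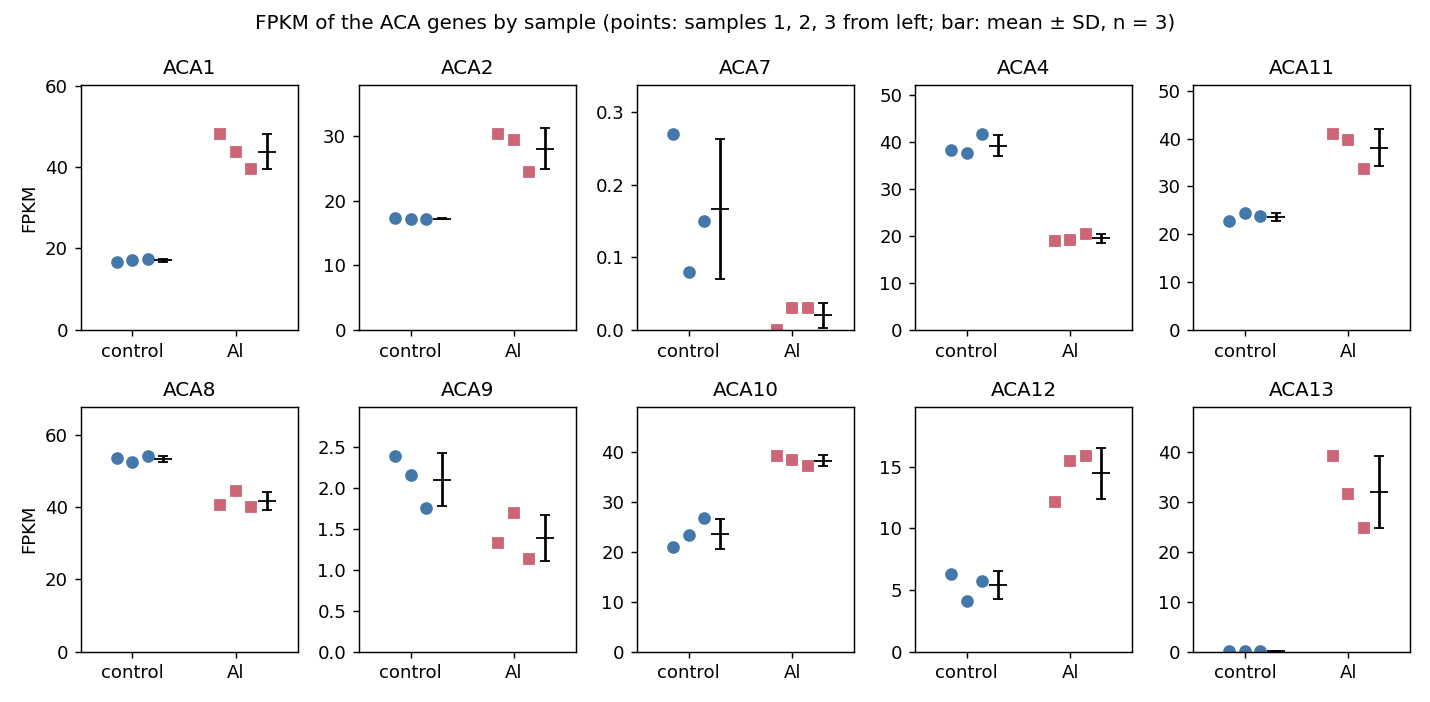
FPKM of each ACA gene (vertical axes, each from 0 and on its own scale) in the 3 control samples (circles) and 3 Al samples (squares), with samples 1, 2 and 3 from left to right and the mean ± SD beside them. No panel has overlapping groups, and 66.3% of all genes tested had no overlap either. ACA7 was too low to be tested. ACA13, tested only through its Al samples, goes from at most 0.15 to at least 24.86.

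The estimated depth was 21580000 to 21800000 fragments per sample, from the single-fragment steps of low FPKM values. Of 9 root tip markers 8 were tested and 6 were lower after Al, beside 38.5% of all genes tested, with their summed FPKM at 91.7 to 93.9 in the control and 63.4 to 68.9 after Al. The lower ones were PLT1 and PLT2 of the stem cell region, MYB66, GL2 and SHV2 of the epidermis and SMB of the root cap, while SHR and SCR were not called and WOX5, at 0.58 to 1.0, was too low to be tested. Their part in the ACA changes was not tested. Of 5 shoot markers 3 were tested and 1, LHCA4, was higher, beside 21.3% of all genes tested. The summed FPKM of the 5 was 13.1 to 16.9 in the control and 17.4 to 23.5 after Al, with LHCB2.1 at most 0.25. Both pollen markers were at 0.05 or below.

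ACA13 rose most. This gene encodes a plasma membrane pump and spans bases 8116292 to 8119490 of chromosome 3 (minus strand), in 1 exon. Its FPKM was 0.10, 0.10 and 0.15 in the control samples and 39.34, 31.74 and 24.86 in the Al samples. It was thus near the limit of detection in every control sample and among the abundant ACA genes in every Al sample. The ratio of the pooled estimated fragments, 6582 after Al and 24 in the control, was 274, with a 95% interval of 185 to 430 (exact Clopper-Pearson, for counting error only). On the log2(FPKM + 1) scale, which understates the change of a gene this low, the difference was 4.86 with a standard error of 0.148 (adjusted p = 1.79e-08 in limma), and by size ACA13 took place 27 of the 3933 rises that were called. It passed the filter only through its Al samples, so a large difference was needed for it to be tested at all. Of the 8 other tested members 5 were higher and 3 lower, beside 21.3% and 38.5% of all genes tested.

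ACA12, the other single-exon member, encodes a plasma membrane pump that biochemical work found active without calmodulin. It spans bases 23406484 to 23410360 of chromosome 3 (minus strand). The control samples had FPKM values of 6.28, 4.14 and 5.74, and the Al samples 12.10, 15.41 and 15.88. The lowest Al sample was well above the highest control sample. In limma the log2 change was 1.28 with a standard error of 0.146 (adjusted p = 8.32e-05). ACA12 and ACA13 together made up 3.02% ± 0.606 (SD, n = 3) of the summed ACA FPKM in control roots and 18.0% ± 0.917 (SD, n = 3) in treated roots. The share of ACA12 alone was 2.96% ± 0.604 in control roots and 5.67% ± 1.12 in treated roots (SD, n = 3).

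ACA1 spans bases 9671632 to 9676307 of chromosome 1 (minus strand). The pump was first described in the plastid envelope and later placed in the endoplasmic reticulum. Its FPKM was 16.76, 17.12 and 17.45 in the control and 48.14, 43.70 and 39.61 after Al. The groups lay far apart, and ACA1 went from rank 6 in the family to the highest mean. In limma the log2 change was 1.3 with a standard error of 0.079 (adjusted p = 1.41e-06). The gene SAT32 on the other strand, also higher after Al (log2 fold change 0.53, limma adjusted p = 0.000471), overlaps 26 exonic bases of ACA1 (0.7%). Whether strand was used in counting is not given in the sources used here, so for this and other overlaps the reads of both genes cannot be told apart there.

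The sequences upstream of ACA1, ACA12 and ACA13 are shown because these members rose most. Each is the 250 bases before the annotated gene start in TAIR10.1, written 5′ to 3′ on the strand of the gene (minus for all of them), from RefSeq's copy of the genome. Capitals mark the letters TTGAC or its reverse complement GTCAA (the core of the W box, a site of WRKY factors) and ACGTG or CACGT (the core of the abscisic acid response element). The regions are chr1:9676308-9676557 for ACA1, chr3:23410361-23410610 for ACA12 and chr3:8119491-8119740 for ACA13.
ACA1: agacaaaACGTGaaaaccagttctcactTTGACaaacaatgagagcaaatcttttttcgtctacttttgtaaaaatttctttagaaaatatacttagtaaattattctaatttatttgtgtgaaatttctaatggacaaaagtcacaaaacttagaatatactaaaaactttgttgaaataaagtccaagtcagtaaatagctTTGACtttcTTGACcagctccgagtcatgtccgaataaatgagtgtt
ACA12: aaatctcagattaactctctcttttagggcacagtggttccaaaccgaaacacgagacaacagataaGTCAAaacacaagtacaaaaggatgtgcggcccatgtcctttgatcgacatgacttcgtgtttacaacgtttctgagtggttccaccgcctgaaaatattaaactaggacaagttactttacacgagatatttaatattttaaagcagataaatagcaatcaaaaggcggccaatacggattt
ACA13: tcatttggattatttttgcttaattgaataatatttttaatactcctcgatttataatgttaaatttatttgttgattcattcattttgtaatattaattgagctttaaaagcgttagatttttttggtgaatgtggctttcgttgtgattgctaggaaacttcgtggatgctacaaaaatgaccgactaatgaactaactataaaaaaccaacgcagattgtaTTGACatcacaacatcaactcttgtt

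In a window of 250 bases before to 50 after the gene start, searched on both strands, TTGAC occurred in 6 of the 10 members (ACA1, ACA2, ACA4, ACA7, ACA12 and ACA13) and in 50.5% of 27443 protein-coding genes. ACA1 held it 3 times, at positions -222, -47 and -38 from the start, ACA12 at -183 and ACA13 at -26. The members with it include genes called higher and ACA4, called lower, and ACA10 and ACA11 rose without it. CGCG, the core of the site of calmodulin-binding CAMTA factors, occurred in 2 members, ACA2 and ACA8, and in 13.0% of all genes, and ACGTG in ACA1 and ACA8 and in 26.7%. No motif thus parted the members that rose from those that fell.

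ACA2, a pump of the endoplasmic reticulum, spans bases 17682859 to 17687105 of chromosome 4 (minus strand) and responded less. It had 17.36, 17.16 and 17.21 FPKM in the control, the same level as ACA1, and 30.35, 29.38 and 24.39 after Al. The control values were nearly equal and all 3 Al values lay above them, the third Al sample being the lowest. In limma the log2 change was 0.66 with a standard error of 0.0871 (adjusted p = 0.000191). The log2 ratio of ACA1 to ACA2 within a sample was -0.01 ± 0.036 (SD, n = 3) in control roots and 0.65 ± 0.0656 (SD, n = 3) in treated roots, so that the rise of ACA1 exceeded that of ACA2 by 0.66 (exact two-sided permutation p = 0.1).

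ACA7, the closest relative of ACA2, was hardly detected and failed the filter. It spans bases 9766058 to 9769957 of chromosome 2 (plus strand). The FPKM was 0.27, 0.08 and 0.15 in the control and 0.00, 0.03 and 0.03 after Al. These values correspond to an estimated 36 fragments over the 3 control samples and 4 over the 3 Al samples, a ratio of 0.12 with an exact 95% interval of 0.0289 to 0.312. The groups did not overlap, with 0 to 19.2 estimated fragments in a sample.

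The genes for the vacuolar pumps moved in opposite directions. ACA4, which spans bases 17332050 to 17337492 of chromosome 2 (minus strand), fell from 38.31, 37.61 and 41.67 FPKM in the control samples to 18.83, 19.06 and 20.44 in the Al samples. The values within each group were close together. In limma the log2 change was -0.97 with a standard error of 0.069 (adjusted p = 4.04e-06), the largest fall among the tested members. ACA11, which spans bases 21211014 to 21216836 of chromosome 3 (minus strand), rose from 22.71, 24.40 and 23.73 to 40.96, 39.65 and 33.63 FPKM. Its log2 change was 0.66 in limma, with a standard error of 0.083 (adjusted p = 0.000145). The gene AT3G57320 on the other strand overlaps 432 exonic bases of ACA11 (9.5%) and had a mean FPKM of 9.16 in the control and 8.38 after Al.

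The order of these paralogs was therefore exchanged. The log2 ratio of ACA11 to ACA4 within a sample was -0.75, -0.62 and -0.81 in the control and 1.12, 1.06 and 0.72 after Al. ACA4 was the more abundant in every control sample and ACA11 in every Al sample. The difference between the groups was 1.70 (exact two-sided permutation p = 0.1), and a ratio within a sample does not depend on how samples are scaled. The summed FPKM of both genes changed less than either of them, with 62.8 ± 2.30 (SD, n = 3) in control roots and 57.5 ± 3.04 (SD, n = 3) in treated roots.

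**Figure D2:**
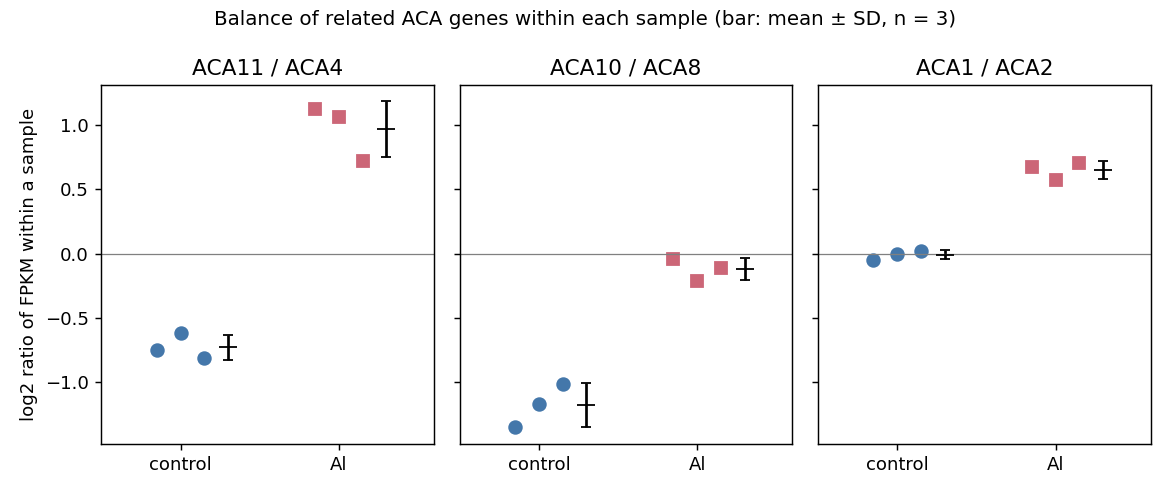
Log2 ratio of FPKM between related ACA genes within each sample (vertical axis, shared by the panels), for 3 control (circles) and 3 Al samples (squares), with the mean ± SD. ACA11 over ACA4 passes from -0.73 to 0.97, ACA10 over ACA8 from -1.18 to -0.12 and ACA1 over ACA2 from -0.01 to 0.65.

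The genes for the plasma membrane pumps with many exons also diverged. ACA8, at bases 23109438 to 23117686 of chromosome 5 (minus strand), was the most abundant member in the control, with 53.47, 52.59 and 54.25 FPKM. After Al it had 40.51, 44.49 and 40.15. Every Al value was below every control value, and in limma the log2 change was -0.35 with a standard error of 0.0632 (adjusted p = 0.00122). With the log2 values corrected for transcript length, the change of ACA8 was -0.13 and did not pass the threshold (adjusted p = 0.104 in limma).

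ACA10, also named CIF1 after a compact inflorescence phenotype, spans bases 14610883 to 14619685 of chromosome 4 (minus strand). It had 20.91, 23.33 and 26.88 FPKM in the control and 39.34, 38.46 and 37.18 after Al. The control samples were the more spread and stayed below all Al samples. In limma the log2 change was 0.68 with a standard error of 0.0893 (adjusted p = 0.000198). The antisense gene AT4G29890 shares 116 exonic bases with ACA10 (2.7%) and was lower after Al (log2 fold change -0.59, limma adjusted p = 0.000348), and 2 further antisense genes, AT4G08245 and AT4G08255, cover 6.8% and 5.0% of it. ACA10 was clearly below ACA8 in the control, with a log2 ratio within a sample of -1.35, -1.17 and -1.01, and close to it after Al, with -0.04, -0.21 and -0.11. The difference was 1.06 (exact two-sided permutation p = 0.1).

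ACA9, a pump known from pollen, where it is needed for pollen tube growth and fertilization, spans bases 7425476 to 7432365 of chromosome 3 (plus strand). It was low, with 2.39, 2.15 and 1.75 FPKM in the control and 1.33, 1.69 and 1.13 after Al. The highest Al value, 1.69, lay just under the lowest control value, 1.75. In limma the log2 change was -0.38 with a standard error of 0.129 (adjusted p = 0.030). This call was lost without control sample 1 (-0.31, limma adjusted p = 0.102), control sample 2 (-0.36, 0.0811), Al sample 1 (-0.37, 0.0716) or Al sample 3 (-0.30, 0.0919), without the filter (-0.38, 0.0515), under median-ratio scaling (-0.29, 0.0761) and with the length correction (-0.15, 0.382). The fall of ACA9 is thus the least certain of the 9 calls. Both pollen markers were near 0, and the antisense gene MSR1, which was also lower (log2 fold change -0.34, limma adjusted p = 0.0378), shares 173 exonic bases (4.3%) with ACA9.

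**Figure D3:**
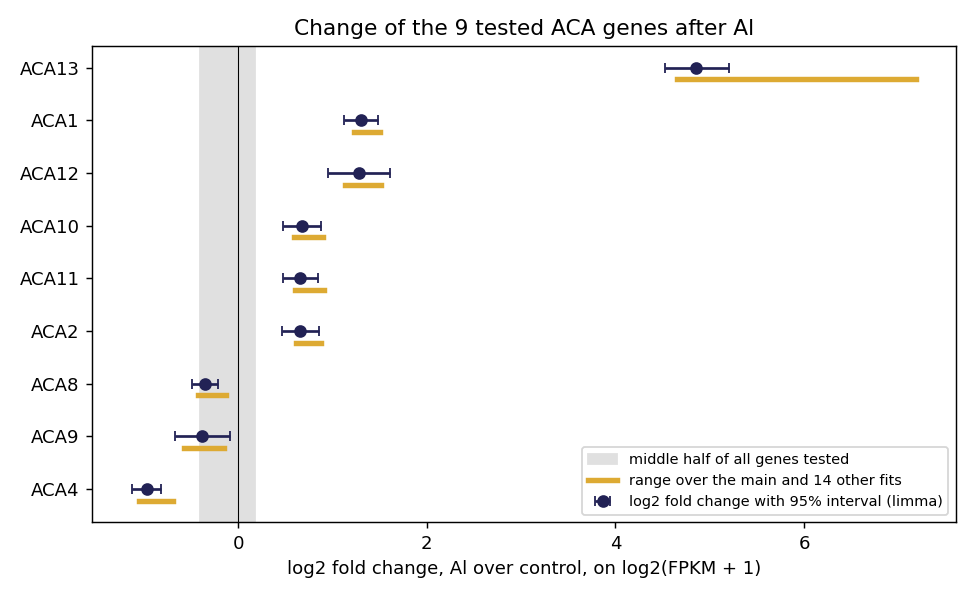
Log2 fold change of the 9 tested ACA genes on log2(FPKM + 1) (horizontal axis, Al over control), with the 95% interval from limma (dots and bars), the range over the main and 14 other fits (yellow lines) and the middle 50% of all genes tested, -0.40 to 0.18 (grey). The 6 members that rose lie to the right of 0 in all fits, led by ACA13 at 4.86, and ACA4 lies farthest to the left at -0.97.

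FPKM is per length, so levels can be set side by side. In the control the order by mean FPKM was ACA8 (53.4), ACA4 (39.2), ACA10 (23.7), ACA11 (23.6), ACA2 (17.2), ACA1 (17.1), ACA12 (5.39), ACA9 (2.1), ACA7 (0.167) and ACA13 (0.117). Of the neighbours in this order, ACA10 and ACA11, ACA2 and ACA1, and ACA7 and ACA13 overlapped in their samples and did not differ beyond their spread. After Al the order was ACA1 (43.8), ACA8 (41.7), ACA10 (38.3), ACA11 (38.1), ACA13 (32.0), ACA2 (28.0), ACA4 (19.4), ACA12 (14.5), ACA9 (1.38) and ACA7 (0.020). Here ACA1 overlapped with ACA8, and the run from ACA10 through ACA11 and ACA13 to ACA2 overlapped at each step. The highest value of ACA11, 40.96, also lay above the lowest values of ACA1 (39.61) and ACA8 (40.15). The treated roots therefore had several members at similar levels where the control was led by ACA8 and ACA4.

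The summed FPKM of the 10 genes was 179, 179 and 189 in the control and 271, 264 and 237 after Al. All Al samples were above all control samples, and without ACA13 the sums were still 178 to 189 in the control and 212 to 232 after Al. ACA8 and ACA4 supplied 29.4% ± 0.622 and 21.5% ± 0.504 (SD, n = 3) of the control sum and 16.3% ± 1.12 and 7.60% ± 0.890 (SD, n = 3) of the sum after Al. The share of ACA1 went from 9.40% ± 0.174 to 17.0% ± 0.658 and that of ACA13 from 0.0638% ± 0.0135 to 12.3% ± 2.04 (SD, n = 3). The summed FPKM of ACA8, ACA9 and ACA10 was 76.8 to 82.9 in the control and 78.5 to 84.6 after Al, ranges that overlap, while that of ACA1, ACA2 and ACA7 went from 34.5 ± 0.252 to 71.9 ± 7.31 (SD, n = 3). Among the Al samples the third had the lowest sum, and it was the lowest for ACA1, ACA2, ACA8, ACA9, ACA10, ACA11 and ACA13 and the highest for ACA4 and ACA12.

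**Figure D4:**
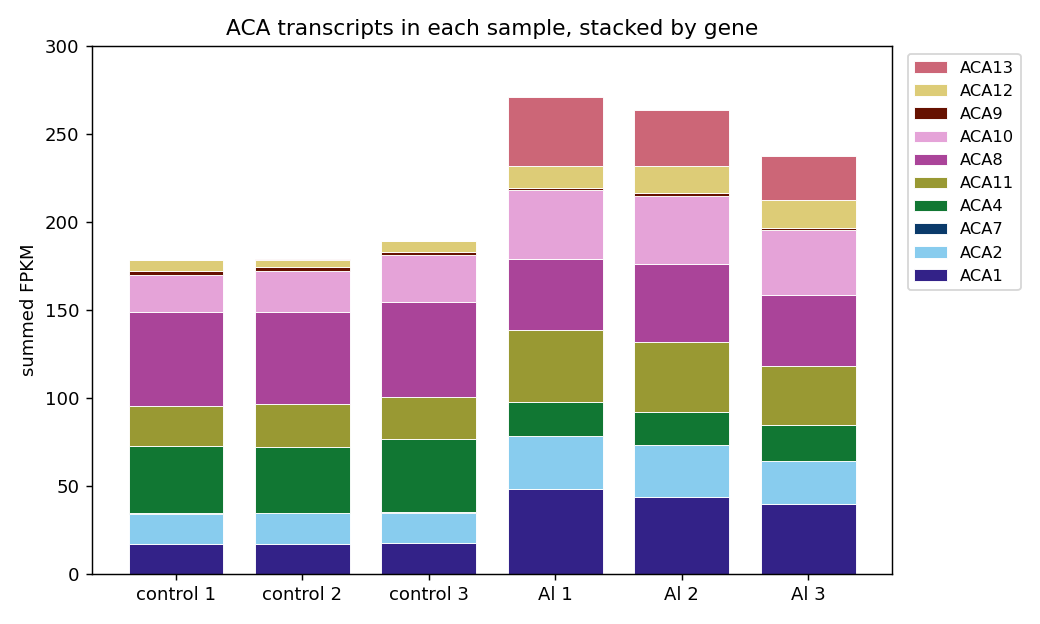
Summed FPKM of the ACA genes in each of the 6 samples (vertical axis from 0), stacked by gene. The sums are 179 to 189 in the control and 237 to 271 after Al, the ACA4 and ACA8 segments are smaller after Al, and the ACA13 segment is visible only there.

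Genes that move or sense calcium in other ways were compared by the same fit, in which 21.3% of all genes tested were called higher and 38.5% lower. Sequence sharing within these lists was not checked. Of the 4 ECA genes, calcium pumps of the other, not calmodulin-bound type, 2 were higher and 2 lower, with log2 fold changes of 0.49 (ECA4), 0.34 (ECA2), -0.38 (ECA3) and -0.17 (ECA1). Of 6 CAX genes, exchangers that load the vacuole with calcium against protons, 5 were tested and all had log2 fold changes above 0, of which 4 were called higher. CAX4 had the largest of these rises, from an FPKM of 7.26 ± 0.654 to 34.1 ± 2.92 (SD, n = 3), followed by CAX3 and CAX2 with log2 fold changes of 1.39 and 0.63. The medians were 0.08 for ECA and 0.63 for CAX, beside -0.13 for all genes tested.

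Among the channels that let calcium in, 14 of 20 CNGC genes (cyclic nucleotide-gated channels) were tested, 7 were higher and 2 lower, beside 21.3% and 38.5% of all genes tested, with a median log2 fold change of 0.15. CNGC19 rose from an FPKM of 0.653 ± 0.196 to 24.4 ± 1.20 (SD, n = 3), and CNGC13 and CNGC3 had log2 fold changes of 2.56 and 0.93. Every control value of CNGC19 was under the filter, so it was tested only through its Al samples and had to differ. The lower ones were CNGC17 (-0.38) and CNGC5 (-0.30). Of 20 GLR genes (glutamate receptor-like channels) 16 were tested, 5 were higher and 7 lower, beside 21.3% and 38.5% of all genes tested, with a median of -0.24. The largest rises were those of GLR1.2 (2.27), GLR2.5 (1.54) and GLR1.3 (0.79), all 3 tested only through their Al samples since every control value was under the filter, and the largest falls those of GLR2.3 (-0.67), GLR3.6 (-0.64) and GLR3.5 (-0.62). All 7 genes for calmodulin, which activates ACA pumps, were tested and 6 were higher, beside 21.3% of all genes tested, with a median of 0.30. CAM2 had the largest change (1.22), before CAM3 (0.61) and CAM1 (0.37).

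The profile of ACA13 over the 6 samples was most like those of TH9, a thioredoxin (Pearson r of log2(FPKM + 1) 0.99995), AT1G53060 (0.99979) and AIR12 (0.99978). TH9 had 42.22, 42.27 and 42.83 FPKM in the control and 85.13, 81.07 and 78.15 after Al, with the order of the samples as in ACA13 and a much smaller change. Because 2 groups of samples set most of such a correlation, 794 of 18454 genes had an r of at least 0.99, and these values are a description only.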

How the data were processed

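Root RNA of 6 WT samples, 3 with Al and 3 without, was sequenced, and groups and replicate numbers were taken from the labels. The authors deposited FPKM values with 2 decimals for 24379 genes, with replicates kept apart. The aligner, counting tool, strand setting and annotation are not given in the sources used here. FPKM depends on the total of each library, so a few genes that rise strongly lower the values of the others, and the effect on the calls was tested by rescaling. The table's 6 repeated FPKM columns equal the first ones and were not used, nor were its columns of a log2 ratio, p-value and q-value for Al against control.

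The 10 ACA genes and the gene lists were chosen with earlier results of these data known. Named genes are all members, up to 3 rises and 3 falls per list that passed the test without overlap between groups, and the 3 profiles most like that of the member with the largest change. Values were tested with limma 3.58.1 (R 4.3.3) on log2(FPKM + 1) over 18463 genes, with a trend of variance on the mean and Benjamini-Hochberg adjustment. Values of 1 gene or ratio were also tested by exact permutation, two-sided.

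Depth was estimated from single-fragment steps of low FPKM values in genes with 1 transcript, with an offset of 36 bases. Between 85.6% and 88.9% of these values were whole fragments to within 0.15, where chance gives 30% at a depth fixed beforehand. The depth and the offset were chosen to make this share largest, so its level by chance is higher and was not computed. Members other than ACA7 and ACA13 had 96 to 4446 estimated fragments per sample, and counting error was 6.98% to 10.2% for ACA9 and at most 5.37% for the others. Intervals cover counting error only. The limma and depth steps were tested on simulated data.

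Alternatives were a replicate block, no filter, a pseudocount of 0.1, each sample left out, median-ratio, TPM and quantile scaling, no mean-variance trend, a loess correction for transcript length (span 0.3) and stricter thresholds. Of the 24174 genes shared with TAIR10.1, 23857 had the same start and end. Proteins were translated from TAIR10.1 and aligned with Biopython 1.88 (BLOSUM62). Other tools were scipy 1.17.1, pandas 2.3.3, numpy 2.4.6 and matplotlib 3.10.9 under Python 3.11.15.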

Additional observations from a re-analysis of the deposited data

How the results depend on the processing

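Over the main and 14 other fits every one of the 9 tested members kept its direction, and ACA1, ACA2, ACA4, ACA10, ACA11, ACA12 and ACA13 were called in all of them. ACA13 ranged from 4.65 to 7.19 on the log2 scale, the highest value coming from the pseudocount of 0.1. Members called higher numbered 6 in all these fits. Over all genes the calls higher ran from 3421 without Al sample 2 to 5381 with median-ratio scaling. With the length correction 1 member, ACA4, was called lower instead of 3, where the calls lower over all genes were 6862 instead of 7106. The ACA transcripts, 3199 to 4686 bases long, exceed 90.9% of the genes tested in length, and the correction raised all members. ACA8 then had -0.13 and ACA9 -0.15. ACA9 was also not called under median-ratio scaling (-0.29, limma adjusted p = 0.0761), without a filter (-0.38, 0.0515) and with 4 of the 6 samples left out in turn (-0.37 to -0.30), so 2 members were lower in those fits. With control sample 3 or Al sample 2 left out it was still called (-0.46 and -0.47). Where a change also had to reach 1 on the log2 scale, 3 members were higher (ACA1, ACA12 and ACA13) and 0 lower (ACA4 was at -0.97), of 1190 higher and 531 lower genes in all, and at an adjusted p under 0.01 ACA9 was not called. The median change of all genes tested, -0.13, became 0.0 with median-ratio and -0.20 with TPM scaling.

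Deviations of same-numbered samples from their group means had correlations of -0.251, -0.0366 and -0.224, with no positive value. Differently numbered samples were not compared, so these values cannot decide whether the replicate numbers pair the samples. With the replicate block the members called were the same 6 higher and 3 lower (ACA8 limma adjusted p = 0.0058, ACA9 0.0352), of 3648 higher and 6319 lower genes in all. Without a filter ACA7 had -0.19 (limma adjusted p = 0.052), and its few fragments limit what can be said of it. Count-based tests were left out because the table holds FPKM.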
